A study of Mus musculus with 8 samples.

Results

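The expression of 10 genes of the Sox family of transcription factors was examined in the early postnatal mouse cortex after loss of BAF155 and BAF170. They were Sox1, Sox2, Sox3 and Sox21 of the SoxB group, Sox4, Sox11 and Sox12 of the SoxC group, Sox6 and Sox13 of the SoxD group and Sox9 of the SoxE group. They were taken by symbol from a list of Sox genes of neural progenitors, neurons and glia, and all 10 were found among the 48709 genes of the count files. The study compared the transcriptome of cortex (dorsal telencephalon, dTel) at postnatal day 3 (P3) between 4 dcKO_hGFAP-Cre and 4 control samples. It asked whether glial cells are generated abnormally without BAF155 and BAF170, the scaffolding subunits of the BAF chromatin remodeling complex. All mice had a C57BL/6J background. The dcKO_hGFAP-Cre mice were BAF155 fl/fl; BAF170 fl/fl; hGFAP-Cre, so that Cre removed floxed DNA from both copies of both genes. The study's methods describe control brains as carrying Cre and a single floxed allele of BAF155 and of BAF170, but in the sample labels the controls are wild type. The human GFAP promoter drives this Cre in radial glia of the dTel, and cells with no history of Cre activity, such as those that enter the cortex from elsewhere, were still part of the tissue. The study speaks of 4 control and 4 mutant cortices. The labels say no more about separate animals than the numbers 1 to 4 in each group, and p-values therefore measure the spread between these samples.

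Sox proteins bind DNA through an HMG box and act with partner factors such as POU and Pax proteins. SoxB1 proteins (Sox1, Sox2, Sox3) keep neural progenitors in an undifferentiated state and Sox21, a SoxB2 protein, counteracts them, while SoxC proteins act in newborn neurons. SoxE proteins act in glia, with Sox9 in radial glia and astrocytes and Sox8 and Sox10 in oligodendrocytes, and SoxD proteins modulate the action of other Sox proteins in neurons and oligodendrocyte precursors.

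The total count was 22106718, 21126713, 31805395 and 30553135 in control samples 1 to 4. It was 22002784, 22812236, 28249608 and 32110285 in dcKO_hGFAP-Cre samples 1 to 4. In both groups samples 1 and 2 were sequenced on lane 5, sample 3 on lane 6 and sample 4 on lane 7. Levels are given in CPM, counts relative to a common library size after TMM scaling, and, for comparison between genes, in RPKM, the same value per kilobase of exon. A floor of 3 counts lay between 0.0934 and 0.142 CPM in these samples and covers counting error only. Differences were tested with edgeR's quasi-likelihood test over 16525 genes, with p-values adjusted over all of them by the Benjamini-Hochberg method and a threshold of 0.05. Positions refer to mm10, and errors of means are SD with n = 4.

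Of the 10 members, 8 were matched by symbol to promoters of RefSeq (GRCm38.p6, the assembly of mm10), and Sox3 and Sox9 were not. Stretches before the start of 4 of them are shown 5′ to 3′ on the strand of the gene. Sox2 is shown because it had the largest rise of the members, and Sox12, Sox11 and Sox4 because they had the highest levels per length in control cortex. Each stretch begins 250 bases before the start that RefSeq gives and ends at that start or before the first base that GENCODE annotates as exon. That of Sox2 lies at chr3:34649745-34649994 on the plus strand, that of Sox12 at chr2:152398064-152398296, that of Sox11 at chr12:27342719-27342968 and that of Sox4 at chr13:28953714-28953949, the last 3 on the minus strand. Capitals mark, on either strand, CCAAT (the CCAAT box), GGGCGG (the GC box) and ATGCAAAT (the octamer, a POU motif).
Sox2: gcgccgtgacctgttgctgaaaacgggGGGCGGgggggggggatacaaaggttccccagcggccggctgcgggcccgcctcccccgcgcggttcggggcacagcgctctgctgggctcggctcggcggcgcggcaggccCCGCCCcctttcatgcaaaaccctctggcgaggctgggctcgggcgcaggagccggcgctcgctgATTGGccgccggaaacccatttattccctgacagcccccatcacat
Sox12: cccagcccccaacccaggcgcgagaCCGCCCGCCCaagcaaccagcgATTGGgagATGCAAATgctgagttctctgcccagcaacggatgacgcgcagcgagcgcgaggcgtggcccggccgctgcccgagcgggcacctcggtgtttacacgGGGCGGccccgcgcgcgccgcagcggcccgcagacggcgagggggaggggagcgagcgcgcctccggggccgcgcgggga
Sox11: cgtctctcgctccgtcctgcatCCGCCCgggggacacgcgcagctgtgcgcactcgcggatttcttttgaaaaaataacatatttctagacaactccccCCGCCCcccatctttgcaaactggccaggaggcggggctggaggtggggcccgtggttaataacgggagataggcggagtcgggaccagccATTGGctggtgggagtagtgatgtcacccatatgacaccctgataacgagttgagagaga
Sox4: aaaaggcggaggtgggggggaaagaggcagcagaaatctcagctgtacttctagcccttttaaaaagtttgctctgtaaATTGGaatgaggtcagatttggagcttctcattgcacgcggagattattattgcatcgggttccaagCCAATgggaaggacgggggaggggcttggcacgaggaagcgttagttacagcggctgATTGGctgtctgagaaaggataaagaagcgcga
The stretch of Sox2, of 250 bases and 72.0% GC, holds 1 CCAAT box and 2 GC boxes. That of Sox12, of 233 bases and 76.0% GC, holds 1 CCAAT box, 1 octamer and 3 GC boxes, 2 of which overlap each other. That of Sox11, of 250 bases and 58.0% GC, holds 1 CCAAT box and 2 GC boxes, and that of Sox4, of 236 bases and 50% GC, holds 3 CCAAT boxes and 0 GC boxes. AACAAT, a core that Sox proteins bind, was searched on both strands too and is in 0 of these 4 stretches. Among stretches of the same lengths from all 32851 promoters of the table, 32.4% to 33.8% hold a CCAAT box, 30.3% to 32.7% a GC box, 1.54% to 1.60% the octamer and 9.06% to 9.42% AACAAT. These matches describe letters, and binding was not measured.

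Both deleted genes had reduced transcripts. Smarcc1, the gene of BAF155, stood at 144, 162, 170 and 160 CPM in control samples 1 to 4 and at 79.4, 73.6, 86.9 and 84.7 CPM in dcKO_hGFAP-Cre samples 1 to 4. Smarcc2, the gene of BAF170, stood at 500, 472, 489 and 469 CPM in control and at 291, 266, 256 and 319 CPM in dcKO_hGFAP-Cre samples. All 4 dcKO_hGFAP-Cre samples lay below all controls in both genes, with log2 fold changes of -0.97 ± 0.08 (SE, edgeR's quasi-likelihood test, adjusted p = 5.44e-06) and -0.77 ± 0.08 (SE, adjusted p = 2.28e-05). Reads are counted over each whole gene, so they include undeleted exons and cells in which Cre was never active. Of the exon bases of Smarcc1, 1.57% are shared with Dhx30 on the opposite strand. In bulk tissue such as this, fewer cells of a type and less RNA per cell cannot be told apart, here and in all results that follow.

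Sox1 and Sox2 were higher in dcKO_hGFAP-Cre cortex, while Sox3, the other SoxB1 gene, was not called. Sox4 and Sox11 lay at nearly the same mean level in both groups, and Sox12 was slightly lower. Of the SoxD genes Sox13 rose and Sox6 was not called, and Sox9 had a lower mean that did not pass the test. In counts, 4 of the 10 members passed the threshold of edgeR's quasi-likelihood test, against 37.5% of the 16525 genes tested. Of the members 3 were higher (Sox1, Sox2 and Sox13) and 1 was lower (Sox12), against 18.6% and 18.9% of all genes. The groups did not overlap in 3 members with higher values and 1 with lower values in dcKO_hGFAP-Cre, against 16.7% and 17.7% of all genes. The share of members called is thus near that of all genes, and the median log2 fold change was 0.03 over the members and 0.02 over all genes. All 10 members passed the filter on low counts, and 5 had an unadjusted p under 0.05. Scaling by library totals in place of TMM shifted the median over all genes by 0.12 on the log2 scale and the share of higher genes among all calls from 49.6% to 68.6%. Relative to that shift the log2 fold changes of Sox2 and Sox12 were 0.71 and -0.20, and without subtracting it Sox12 was at -0.08 and was not called (adjusted p = 0.344). With 1 control and 1 dcKO_hGFAP-Cre sample, lanes 6 and 7 were too small for a test within them. In the 4 called members the dcKO_hGFAP-Cre samples lay on the same side of the controls within each lane.

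**Figure D1:**
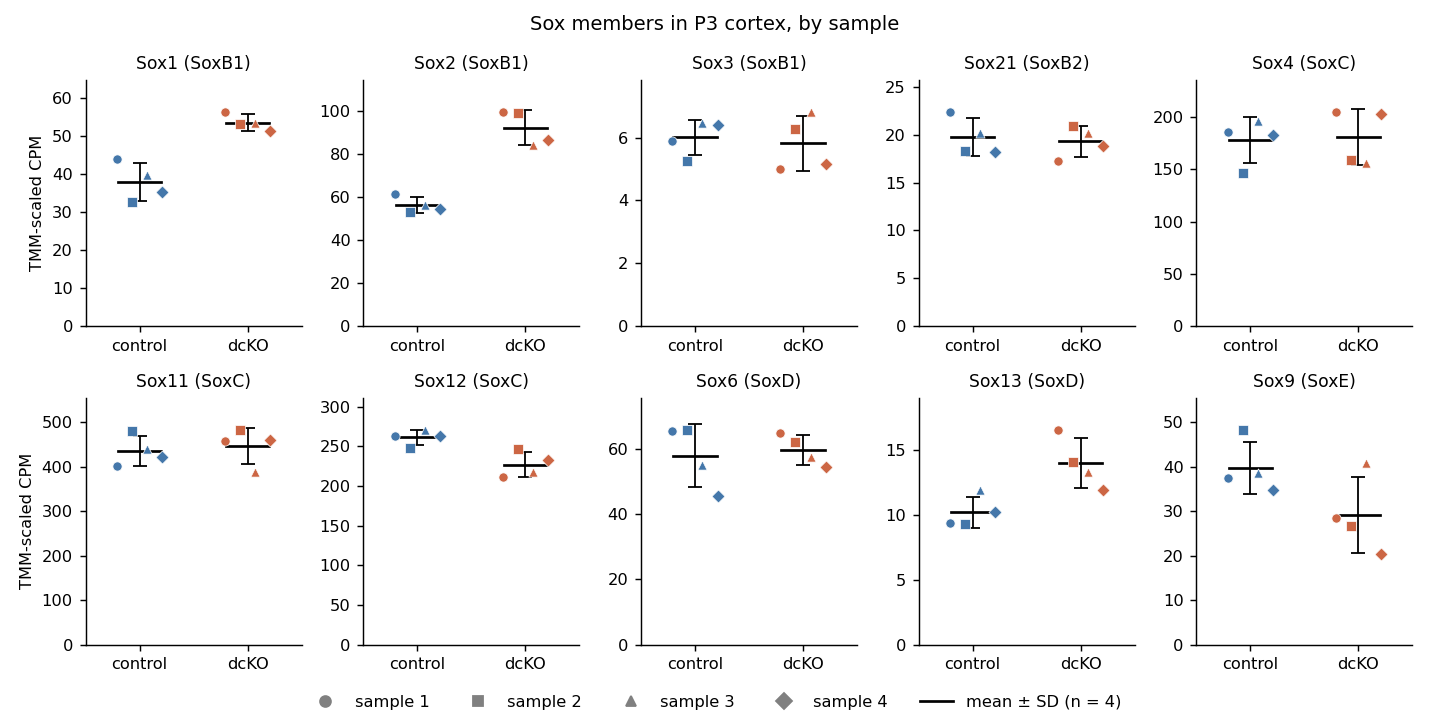
Level of each of the 10 Sox members in TMM-scaled CPM (y axis, from 0) in control and dcKO_hGFAP-Cre cortex at P3 (x axis), with symbols for samples 1 to 4, thick lines for the mean and thin bars for the SD (n = 4). The groups stand apart in Sox1, Sox2, Sox12 and Sox13, and dcKO_hGFAP-Cre sample 3 is the highest of its group in Sox9 at 40.8 CPM.

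Sox2, the SoxB1 factor of neural stem cells, had the largest rise. This gene of 1 exon (ENSMUSG00000074637, chromosome 3, 34650405 to 34652461, plus strand) stood at 61.3, 53.1, 56.4 and 54.4 CPM in control samples 1 to 4 and at 99.6, 98.9, 84.3 and 86.4 CPM in dcKO_hGFAP-Cre samples 1 to 4. All dcKO_hGFAP-Cre samples were above all controls, and samples 1 and 2 were the highest. The mean went from 56.3 ± 3.57 to 92.3 ± 8.10 CPM, a log2 fold change of 0.71 ± 0.09 (SE, 1.64-fold, adjusted p = 6.81e-05 in the quasi-likelihood test of edgeR). Sox1 (ENSMUSG00000096014, chromosome 8, 12395295 to 12400126, plus strand), a SoxB1 gene of 1 exon that acts beside Sox2, stood at 44.0, 32.6, 39.8 and 35.2 CPM in control and at 56.3, 53.0, 53.5 and 51.2 CPM in dcKO_hGFAP-Cre samples. Again all dcKO_hGFAP-Cre samples were above all controls, and they were closer to each other than the controls were. The log2 fold change was 0.50 ± 0.10 (SE, 1.41-fold, adjusted p = 0.00203 from the same test). Sox3 (ENSMUSG00000045179, chromosome X, 60891366 to 60893430, minus strand), the X-linked SoxB1 gene, stood at 5.89, 5.27, 6.47 and 6.39 CPM in control and at 5.0, 6.27, 6.82 and 5.16 CPM in dcKO_hGFAP-Cre samples. The groups overlapped, and the log2 fold change of -0.05 ± 0.15 (SE, adjusted p = 0.821) did not pass the test.

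SoxB1 genes were also compared within samples, where the rise of Sox1 or Sox2 by itself lowers a ratio to that gene. The ratio of Sox3 to Sox2 counts was 0.0965, 0.0997, 0.115 and 0.118 in control samples 1 to 4 and 0.0504, 0.0636, 0.0812 and 0.0599 in dcKO_hGFAP-Cre samples 1 to 4. All dcKO_hGFAP-Cre ratios were below all control ratios, a difference of -0.77 on the log2 scale (two-sided exact permutation p = 0.0286, the smallest that 4 samples against 4 allow). Adjusted over the 11 ratios computed, this p was 0.0524 and missed 0.05. The ratio of Sox3 to Sox1 differed by -0.56 on the log2 scale with the same exact permutation p and the same adjusted value. The ratio of Sox1 to Sox2 ranged between 0.613 and 0.718 in control and between 0.536 and 0.634 in dcKO_hGFAP-Cre samples, and the groups overlapped (two-sided exact permutation p = 0.0571, 0.0698 adjusted over the 11 ratios). Summed over the 3 genes, the SoxB1 level per length was 38.1 ± 2.84 RPKM in control and 58.8 ± 4.09 RPKM in dcKO_hGFAP-Cre cortex. Sox2 made up 71.9% of this sum in control and 76.3% in dcKO_hGFAP-Cre cortex, and Sox3 7.65% and 4.82%.

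Sox1 and Sox2 each lie within a longer noncoding gene on the same strand. Sox2ot, whose introns hold Sox2, stood at 27.4, 31.1, 27.2 and 26.3 CPM in control and at 54.7, 48.5, 45.2 and 47.5 CPM in dcKO_hGFAP-Cre samples. Sox1ot stood at 28.9, 26.2, 24.7 and 21.9 CPM in control and at 51.9, 47.8, 37.7 and 51.1 CPM in dcKO_hGFAP-Cre samples. Both transcripts rose with all dcKO_hGFAP-Cre samples above all controls, by log2 fold changes of 0.81 ± 0.09 for Sox2ot and 0.89 ± 0.12 for Sox1ot (SE, adjusted p = 4.56e-05 and 1.45e-04 in the quasi-likelihood test of edgeR). Neither shares an annotated exon base with its Sox gene. The ratio of Sox2 to Sox2ot counts lay between 1.71 and 2.23 in control and between 1.82 and 2.04 in dcKO_hGFAP-Cre samples, and that of Sox1 to Sox1ot between 1.24 and 1.61 and between 1.0 and 1.42. These ratios overlapped between the groups and were not tested. Within Sox1 the annotation also places the microRNA gene Gm25239, on 1.78% of the exon bases, with 0 counts in all 8 samples.

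Sox21 (ENSMUSG00000061517, chromosome 14, 118233232 to 118237030, minus strand), which counteracts SoxB1 proteins, stood at 22.4, 18.3, 20.2 and 18.2 CPM in control and at 17.3, 20.9, 20.2 and 18.8 CPM in dcKO_hGFAP-Cre samples. The groups overlapped, and the log2 fold change was -0.03 ± 0.11 (SE, adjusted p = 0.824 in the quasi-likelihood test of edgeR), which became 0.08 with library totals. Set against Sox2 in the same sample, the ratio of Sox21 to Sox2 counts was 0.366, 0.344, 0.359 and 0.334 in control and 0.174, 0.211, 0.239 and 0.218 in dcKO_hGFAP-Cre samples. All dcKO_hGFAP-Cre ratios were lower, by -0.74 on the log2 scale (two-sided exact permutation p = 0.0286, 0.0524 adjusted over the 11 ratios). Sox2, the denominator, was itself higher in all dcKO_hGFAP-Cre samples. Of the exon bases of Sox21, 18.8% are shared with Gm4675 on the opposite strand. Gm4675 was at 0.505 CPM in control and 0.852 CPM in dcKO_hGFAP-Cre cortex (adjusted p = 0.0512). It passed without control sample 1 (0.0401) or dcKO_hGFAP-Cre sample 3 (0.0493), with library totals (0.0273) and with at least 10 counts required in every sample (0.0331). The libraries were made with a kit that does not mark the strand, so reads from the shared bases cannot be assigned to either gene.

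**Figure D2:**
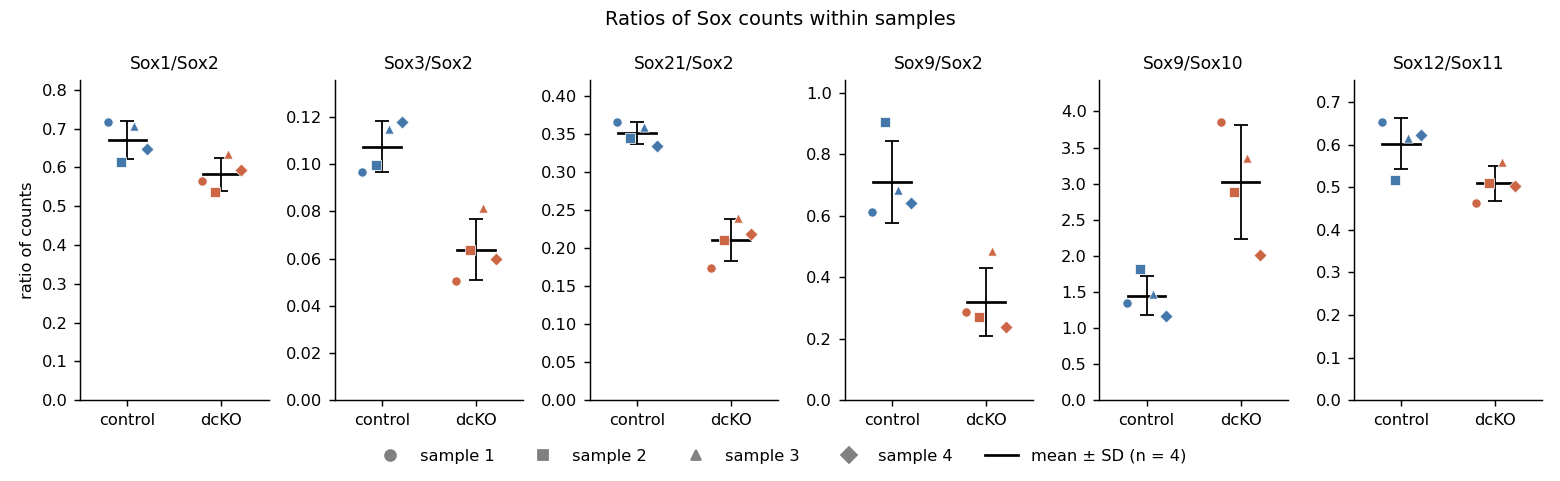
Ratio of the counts of pairs of Sox genes in the same sample (y axes, from 0) in control and dcKO_hGFAP-Cre cortex (x axis), with symbols for samples 1 to 4, thick lines for the mean and thin bars for the SD (n = 4). The ratios of Sox3, Sox21 and Sox9 to Sox2 are lower in all 4 dcKO_hGFAP-Cre samples than in all controls, that of Sox9 to Sox10 is higher, and those of Sox1 to Sox2 and of Sox12 to Sox11 overlap.

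The SoxC genes, which act in newborn neurons, were the 3 members with the highest levels per length in control cortex. Sox11 (ENSMUSG00000063632, chromosome 12, 27334264 to 27342574, minus strand) stood at 401, 481, 439 and 423 CPM in control and at 457, 482, 388 and 461 CPM in dcKO_hGFAP-Cre samples. Sox4 (ENSMUSG00000076431, chromosome 13, 28948919 to 28953713, minus strand) stood at 186, 146, 196 and 183 CPM in control and at 205, 159, 156 and 203 CPM in dcKO_hGFAP-Cre samples. Both genes overlapped between the groups, with control sample 2 lowest in Sox4 and highest among the controls in Sox11. The log2 fold changes were 0.04 ± 0.08 for Sox11 and 0.02 ± 0.12 for Sox4 (SE, adjusted p = 0.759 and 0.901 in the quasi-likelihood test of edgeR). Of the exon bases of Sox4, 54.6% are shared with Gm26735 on the opposite strand, which had 1 count in dcKO_hGFAP-Cre sample 4 and 0 in the other 7 samples.

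Sox12 (ENSMUSG00000051817, chromosome 2, 152393611 to 152398063, minus strand), the SoxC gene whose protein is the weakest activator, stood at 263, 248, 270 and 263 CPM in control samples 1 to 4 and at 211, 246, 217 and 232 CPM in dcKO_hGFAP-Cre samples 1 to 4. The groups did not overlap, but control sample 2 and dcKO_hGFAP-Cre sample 2 differed by little, at 248 and 246 CPM. The log2 fold change was -0.20 ± 0.07 (SE, 0.868-fold, adjusted p = 0.0428 in the quasi-likelihood test of edgeR). This call was the least stable of the 4, as 12 of 18 alternatives lost it, with adjusted p-values from 0.0176 to 0.344 over all 18. It was lost without control sample 1 (adjusted p = 0.0614), 3 (0.113) or 4 (0.0736), without dcKO_hGFAP-Cre sample 1 (0.116) or 3 (0.0692), and with the lane as a block (0.062). The ratio of Sox12 to Sox11 counts was 0.654, 0.517, 0.616 and 0.622 in control and 0.462, 0.510, 0.560 and 0.503 in dcKO_hGFAP-Cre samples, which overlapped at control sample 2 (log2 difference -0.24, two-sided exact permutation p = 0.0571). The ratio of Sox12 to Sox4 differed by -0.22 (exact permutation p = 0.229) and that of Sox4 to Sox11 by -0.02 (exact permutation p = 0.914) on the log2 scale. The summed SoxC level was 148 ± 4.43 RPKM in control and 142 ± 9.85 RPKM in dcKO_hGFAP-Cre cortex. Sox12 made up 38.7% to 40.4% of it in control and 32.7% to 38.1% in dcKO_hGFAP-Cre samples. The sum and the shares take all exon bases of Sox4 as its length. Reads on the 54.6% shared with Gm26735 appear not to have been counted, as that gene had 1 count in 1 sample and 0 in the others. With only the remaining bases as the length, the sum would be higher and the share of Sox12 lower in both groups.

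Markers of neurons, in which SoxC genes are expressed, were lower at the same time. Of 12 newborn neuron genes, 9 fell, 1 rose and 2 were not called (median log2 fold change -0.47). Their summed level was 16000, 16660, 17350 and 17790 CPM in control and 11730, 12450, 12780 and 11920 CPM in dcKO_hGFAP-Cre samples, with all dcKO_hGFAP-Cre sums lower. The most abundant was Tubb3, a neuronal tubulin, at 3290 ± 393 and 2180 ± 149 CPM, the largest fall was that of Neurod6 (log2 fold change -2.04, adjusted p = 1.37e-06 in the quasi-likelihood test of edgeR), and Neurod1 was the gene that rose (0.65, adjusted p = 0.00336). Of 12 cortical neuron genes, which also include Neurod6, 10 fell and 2 were not called (median -0.97). Their summed level was 3500, 3874, 3977 and 3933 CPM in control and 1786, 1728, 1785 and 1938 CPM in dcKO_hGFAP-Cre samples. Mef2c was the most abundant of them, at 1680 ± 145 and 619 ± 32.1 CPM (log2 fold change -1.44, adjusted p = 3.99e-07). Without dcKO_hGFAP-Cre sample 2, 1 cortical neuron gene passed as higher. Tubb3 and Mef2c, markers of neurons of the labelled tissue, were detected in all 8 samples. The part of neuron number in the SoxC levels was not tested.

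**Figure D3:**
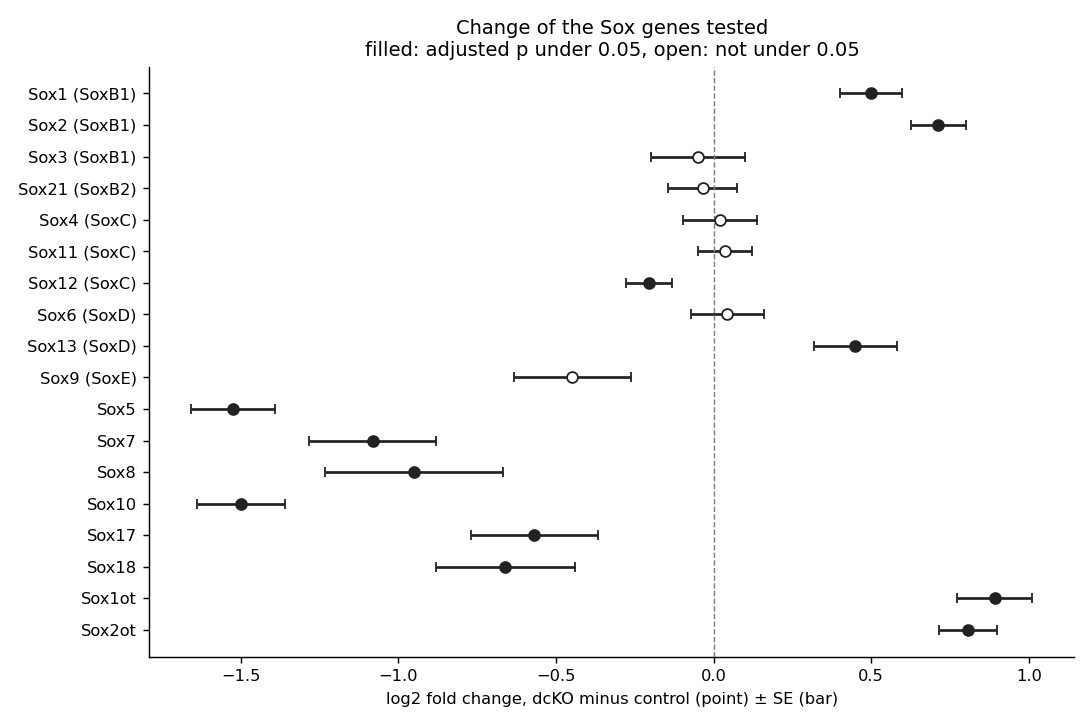
Log2 fold change of dcKO_hGFAP-Cre over control cortex (x axis) for the 10 members with their group, 6 other Sox genes and the transcripts Sox1ot and Sox2ot, with estimates of edgeR as points, SE as bars and filled points for an adjusted p under 0.05. Sox5 and Sox10 lie near -1.5 at -1.52 and -1.50, and the members lie between -0.45 and 0.71.

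The SoxD genes encode factors without a transactivation domain of their own. Sox13 (ENSMUSG00000070643, chromosome 1, 133382303 to 133424377, minus strand) stood at 9.34, 9.32, 11.9 and 10.2 CPM in control and at 16.5, 14.1, 13.3 and 11.9 CPM in dcKO_hGFAP-Cre samples. The groups did not overlap but came close, since control sample 3, with 358 counts, and dcKO_hGFAP-Cre sample 4, with 395 counts, both print as 11.9 CPM. The mean went from 10.2 ± 1.21 to 14.0 ± 1.94 CPM, a log2 fold change of 0.45 ± 0.13 (SE, 1.37-fold, adjusted p = 0.0184 in the quasi-likelihood test of edgeR, between 0.00525 and 0.194 over 18 alternatives). The call was lost without control sample 2 (0.41, adjusted p = 0.0548) or dcKO_hGFAP-Cre sample 1 (0.35, adjusted p = 0.0629). It was also lost without both dcKO_hGFAP-Cre samples 1 and 2 (0.31, adjusted p = 0.194), a comparison chosen after the data were seen because these samples had the high choroid plexus counts given further on. Sox6 (ENSMUSG00000051910, chromosome 7, 115470872 to 116038796, minus strand), which has 16 annotated transcripts and acts in interneurons, deep-layer neurons and oligodendrocyte precursors, stood at 65.5, 65.6, 55.0 and 45.4 CPM in control and at 64.8, 62.0, 57.3 and 54.5 CPM in dcKO_hGFAP-Cre samples. The groups overlapped, and samples 3 and 4 were lower than samples 1 and 2 in both groups, on lanes 6 and 7 against lane 5. The log2 fold change was 0.04 ± 0.12 (SE, adjusted p = 0.792), and 0.06 with the lane as a block (adjusted p = 0.642). The ratio of Sox6 to Sox13 counts was 7.0, 7.03, 4.62 and 4.42 in control and 3.91, 4.39, 4.29 and 4.57 in dcKO_hGFAP-Cre samples, overlapping at control sample 4 (two-sided exact permutation p = 0.0571, 0.0698 adjusted over the 11 ratios). The high control ratios were those of samples 1 and 2 on lane 5. On lanes 6 and 7 the ratios of the groups lay close, with the dcKO_hGFAP-Cre sample lower on lane 6 and higher on lane 7. The opposite-strand genes Sox6os and Gm45025 share no exon base with Sox6 and had at most 4 counts in any sample.

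Sox6 is also a gene of interneurons from the medial ganglionic eminence (MGE), whose markers were mostly higher. Of 14 MGE interneuron genes, 10 rose, 2 fell and 2 were not called (median log2 fold change 0.46). Their summed level was 1098, 1149, 1179 and 1203 CPM in control and 1371, 1461, 1311 and 1394 CPM in dcKO_hGFAP-Cre samples. Satb1 had the highest mean over all 8 samples and the largest fall, from 281 ± 31.4 to 127 ± 13.7 CPM (-1.14, adjusted p = 7.30e-06 in the quasi-likelihood test of edgeR), and Nkx2-1, the factor that specifies the MGE, had the largest rise (1.63, adjusted p = 9.70e-05). In dcKO_hGFAP-Cre samples Sst had the highest mean, at 199 ± 22.8 CPM against 97.9 ± 13.0 CPM in control. The part of interneurons in the level of Sox6 was not tested.

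Sox9, the SoxE gene of radial glia and astrocytes, was lower in 3 of the 4 dcKO_hGFAP-Cre samples. The gene (ENSMUSG00000000567, chromosome 11, 112782224 to 112787760, plus strand) stood at 37.4, 48.2, 38.5 and 34.8 CPM in control samples 1 to 4 and at 28.5, 26.7, 40.8 and 20.4 CPM in dcKO_hGFAP-Cre samples 1 to 4. Samples 1, 2 and 4 lay below all controls, and sample 3 lay above 3 of the 4 controls. On lane 6 the dcKO_hGFAP-Cre sample was thus above the control, and on lanes 5 and 7 it was below. The log2 fold change of -0.45 ± 0.19 (SE) had an unadjusted p of 0.0341 and an adjusted p of 0.0792 in edgeR's quasi-likelihood test and did not pass (two-sided exact permutation p = 0.114). Without dcKO_hGFAP-Cre sample 3 it was -0.66 with an adjusted p of 0.0031, and it passed too with the lane as a block (-0.49, adjusted p = 0.0184) and in DESeq2 (-0.47, adjusted p = 0.0373). Over 18 alternatives the log2 fold change lay between -0.68 and -0.30 and the adjusted p between 0.0031 and 0.321. Set against Sox2, the ratio of counts was 0.611, 0.906, 0.682 and 0.640 in control and 0.286, 0.270, 0.484 and 0.237 in dcKO_hGFAP-Cre samples. All 4 dcKO_hGFAP-Cre ratios were lower, by -1.19 on the log2 scale (two-sided exact permutation p = 0.0286, 0.0524 adjusted over the 11 ratios). Sox2, the denominator, was itself higher in all dcKO_hGFAP-Cre samples, and the ratio of sample 3 was low although its Sox9 level was not.

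The other SoxE genes, Sox8 and Sox10, fell. Sox10, the factor that drives myelin genes, stood at 28.0, 26.5, 26.2 and 29.7 CPM in control and at 7.35, 9.24, 12.1 and 10.2 CPM in dcKO_hGFAP-Cre samples. Sox8 stood at 34.5, 39.4, 35.7 and 38.1 CPM in control and at 20.2, 12.5, 31.4 and 12.3 CPM in dcKO_hGFAP-Cre samples. All dcKO_hGFAP-Cre samples lay below all controls in both genes, with sample 3 the highest of its group. The log2 fold changes were -1.50 ± 0.14 for Sox10 (SE, adjusted p = 9.76e-06 in the quasi-likelihood test of edgeR) and -0.95 ± 0.28 for Sox8 (SE, adjusted p = 0.0281). The call of Sox8 was lost without control sample 2, 3 or 4 or dcKO_hGFAP-Cre sample 4 (adjusted p between 0.0555 and 0.0656) as well as without a low-count filter (0.11) or without both dcKO_hGFAP-Cre samples 1 and 2 (0.134), and 10.6% of its exon bases are shared with 2810468N07Rik on the opposite strand (adjusted p = 0.518). The ratio of Sox9 to Sox10 counts was 1.34, 1.82, 1.47 and 1.17 in control and 3.86, 2.88, 3.35 and 2.01 in dcKO_hGFAP-Cre samples. It was higher in all dcKO_hGFAP-Cre samples, by 1.04 on the log2 scale, and that of Sox9 to Sox8 by 0.58 (two-sided exact permutation p = 0.0286 each, 0.0524 adjusted over the 11 ratios).

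**Figure D4:**
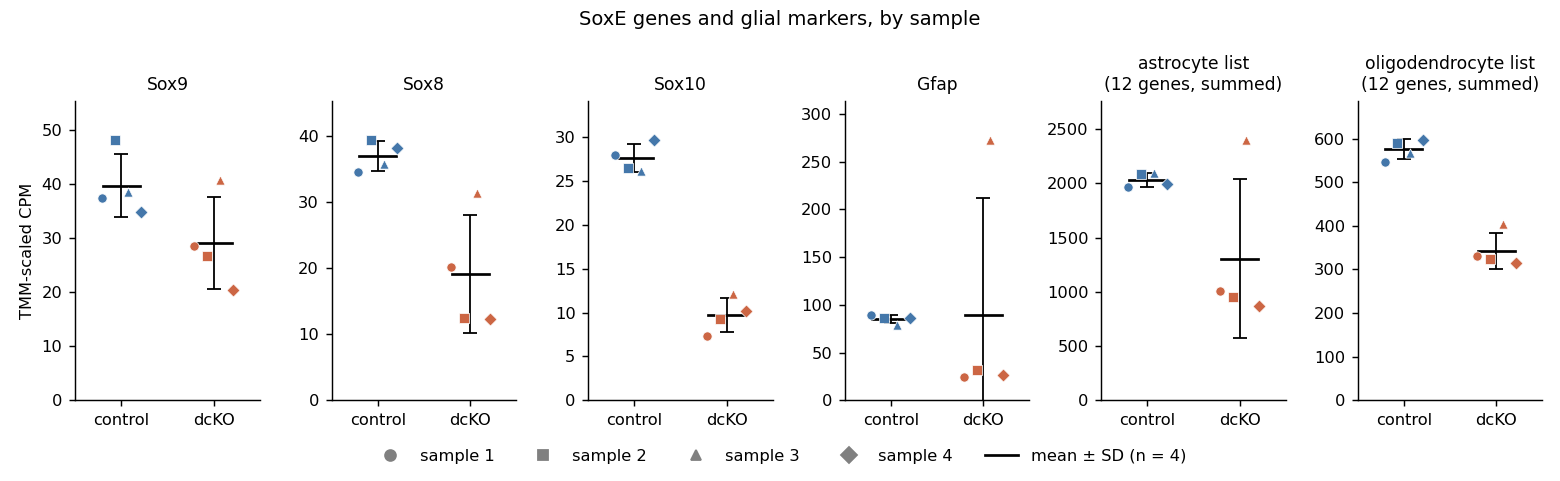
Levels of Sox9, Sox8, Sox10 and Gfap and summed levels of the 12 astrocyte and the 12 oligodendrocyte lineage genes in TMM-scaled CPM (y axes, from 0) in control and dcKO_hGFAP-Cre cortex (x axis), with symbols for samples 1 to 4, thick lines for the mean and thin bars for the SD (n = 4), where the bar of Gfap in dcKO_hGFAP-Cre reaches under 0 and is not drawn past the axis. Sample 3 is the highest of the dcKO_hGFAP-Cre samples in all 6 panels, within or above the controls in Sox9, Gfap and the astrocyte genes.

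dcKO_hGFAP-Cre sample 3 stood apart in glial markers too. The summed level of 12 astrocyte genes was 1964, 2084, 2093 and 1997 CPM in control and 1008, 949, 2401 and 868 CPM in dcKO_hGFAP-Cre samples, so that sample 3 lay above all controls and the other 3 below them. Of these genes 4 fell and 8 were not called (median log2 fold change -0.67), and without dcKO_hGFAP-Cre sample 3 the number that fell was 10, in limma-voom 7, and without dcKO_hGFAP-Cre samples 1 and 2 it was 1. Sparcl1 had the highest mean over all 8 samples and the largest fall, from 696 ± 56.9 to 276 ± 139 CPM (-1.33, adjusted p = 0.0133 in the quasi-likelihood test of edgeR), while in dcKO_hGFAP-Cre samples Apoe was the highest (421 ± 37.9 and 400 ± 212 CPM, not called). Gfap and Aqp4, chosen after their values were seen, show the same sample: Gfap, the filament protein of astrocytes, stood at 24.2, 32.2, 273 and 26.2 CPM in dcKO_hGFAP-Cre samples and between 79.3 and 89.5 CPM in controls. Aqp4, a water channel, stood at 9.92, 9.49, 53.0 and 9.72 CPM in dcKO_hGFAP-Cre samples and between 38.8 and 63.7 CPM in controls. The summed level of 12 radial glia genes was 2889, 2955, 2840 and 2773 CPM in control and 2409, 2617, 3429 and 2258 CPM in dcKO_hGFAP-Cre samples, again with sample 3 the highest. Of these, 4 fell, 2 rose and 6 were not called (median -0.11), with Fabp7 the highest over all 8 samples (735 ± 23.8 and 860 ± 292 CPM), Ptprz1 the highest in control (879 ± 108 and 640 ± 53.0 CPM), Prom1 the largest fall (-0.89, adjusted p = 0.00806) and Hopx the largest rise (1.23, adjusted p = 2.63e-04). Of 12 oligodendrocyte lineage genes 11 fell and 1 was not called (median -0.73), with sums of 547, 590, 568 and 597 CPM in control and 330, 324, 403 and 314 CPM in dcKO_hGFAP-Cre samples. Pdgfra was the highest over all 8 samples (135 ± 12.8 and 97.4 ± 6.01 CPM), Olig1 the highest in control (142 ± 14.6 and 85.7 ± 24.1 CPM), and Enpp6 had the largest fall, from 2.49 to 0.111 CPM, the latter at the floor (adjusted p = 5.49e-06). The part of glial cell numbers in the levels of Sox9, Sox8 and Sox10 was not tested.

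Per length, the members spanned a wide range. All exon bases were taken as the length, and 54.6% of those of Sox4 are shared with Gm26735 and 18.8% of those of Sox21 with Gm4675. Whether reads on shared bases were counted is not given, but 2616 of the 2649 exon bases of Gm26735 lie in Sox4. The kit does not mark the strand, so reads counted there would be expected in Gm26735 too. It had 1 count in dcKO_hGFAP-Cre sample 4 and 0 in the other samples. Reads on the shared bases thus appear not to have been counted, if the annotation used had the same exons. The level of Sox4 per length printed here is then too low, and its place in both orders would be higher. In control cortex the order was Sox12 (58.6 ± 2.05 RPKM), Sox11 (52.4 ± 4.04), Sox4 (37.1 ± 4.54), Sox2 (27.4 ± 1.74), Sox9 (9.60 ± 1.41), Sox1 (7.84 ± 1.04), Sox21 (5.20 ± 0.526), Sox6 (3.90 ± 0.655), Sox3 (2.91 ± 0.267) and Sox13 (2.37 ± 0.280). Neighbours in this order whose samples overlapped were Sox12 and Sox11, Sox9 and Sox1, Sox6 and Sox3, and Sox3 and Sox13. In dcKO_hGFAP-Cre cortex the order was Sox11 (53.8 ± 4.96 RPKM), Sox12 (50.9 ± 3.52), Sox2 (44.9 ± 3.94), Sox4 (37.7 ± 5.63), Sox1 (11.1 ± 0.431), Sox9 (7.03 ± 2.06), Sox21 (5.08 ± 0.419), Sox6 (4.02 ± 0.312), Sox13 (3.24 ± 0.449) and Sox3 (2.82 ± 0.425). Here the samples of the first 4 genes overlapped from each to the next, as did those of Sox9 and Sox21, Sox6 and Sox13, and Sox13 and Sox3. Sox2, apart from and below the SoxC genes in control samples, thus overlapped with Sox11 and Sox12 in dcKO_hGFAP-Cre samples. Its printed overlap with Sox4 rests on all exon bases of Sox4 as the length. With only the bases not shared with Gm26735 as the length, Sox4 would lie higher. Sox1 and Sox9 changed places. With the length of the longest transcript in place of all exons, Sox6 moved to 6.68 and 6.88 RPKM, above Sox21 in both groups, and Sox13 to 2.76 and 3.79 RPKM. The level of Sox21 per length would be higher without its shared bases, so its separation from Sox1 in control and its order against Sox6 are uncertain.

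**Figure D5:**
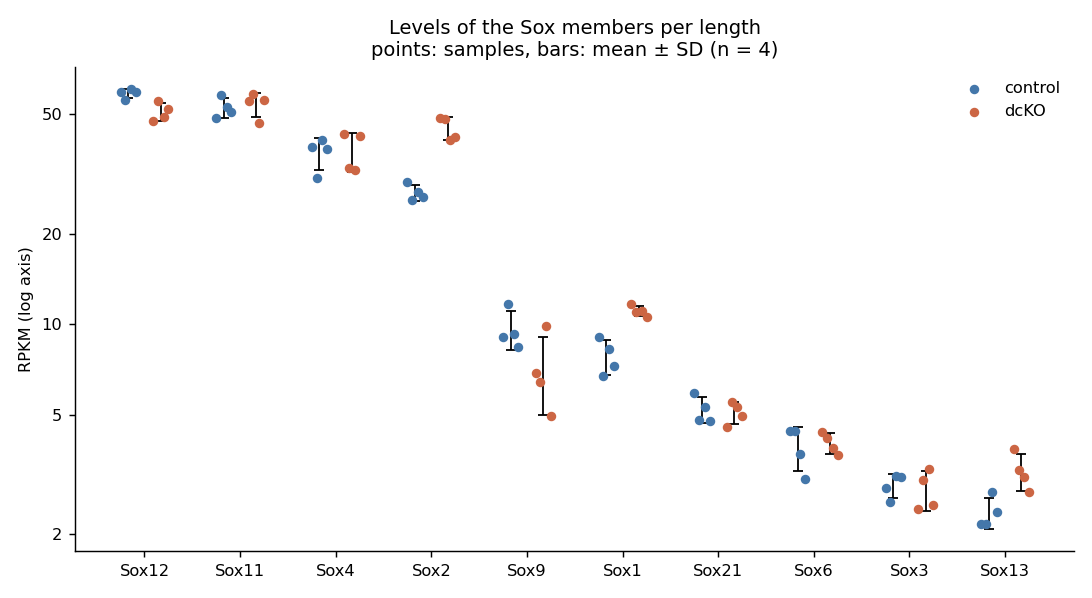
Level per length of the 10 Sox members in RPKM (y axis, log scale), ordered by the control mean (x axis), with control and dcKO_hGFAP-Cre side by side, points for samples and bars for the mean plus and minus SD (n = 4). Sox2 lies below the SoxC genes in control at 27.4 RPKM and below the means of Sox11 and Sox12 in dcKO_hGFAP-Cre cortex at 44.9 RPKM. All exon bases are taken as the length, 54.6% of which in Sox4 are shared with Gm26735. Reads on these appear not to have been counted, so Sox4 is drawn too low in both groups.

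Of 9 other Sox genes of the mouse, 6 passed the filter on low counts and were tested. These 6 fell, with a median log2 fold change of -1.01 beside 0.02 over all genes. The number was 3 of 6 without control sample 2, 3 or 4. Sox5, the SoxD gene of deep-layer neurons, had the largest fall and the highest CPM of these. It stood at 151, 148, 108 and 109 CPM in control and at 38.4, 41.7, 49.2 and 49.7 CPM in dcKO_hGFAP-Cre samples. All dcKO_hGFAP-Cre samples lay far below the controls, a log2 fold change of -1.52 ± 0.13 (SE, adjusted p = 7.61e-06 in the quasi-likelihood test of edgeR). Per length over all exons, Sox5 was below Sox8 in control, at 8.965 and 11.84 RPKM. With the longest transcript Sox5 was above Sox8 in control, at 17.79 and 12.31 RPKM. In dcKO_hGFAP-Cre cortex it was below Sox8 with either length. Sox5 thus fell while Sox6 was not called and Sox13 rose, and differences between these changes were not tested. Of the exon bases of Sox5, 9.25% are shared with Sox5os1 on the opposite strand, which had 1 count in control sample 2 and 0 in the other samples. Over the 9 genes the summed level was 233, 234, 193 and 198 CPM in control and 78.5, 76.1, 109 and 80.8 CPM in dcKO_hGFAP-Cre samples.

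Sox7, Sox17 and Sox18, the SoxF genes of endothelial cells, were low and fell. Sox7 stood at 6.86, 7.39, 7.07 and 6.39 CPM in control and at 2.48, 2.97, 4.84 and 2.75 CPM in dcKO_hGFAP-Cre samples. All dcKO_hGFAP-Cre samples lay below all controls (log2 fold change -1.08 ± 0.20, SE, adjusted p = 0.00141 in the quasi-likelihood test of edgeR). Sox17 lay between 3.71 and 4.42 CPM in control and between 1.90 and 3.51 CPM in dcKO_hGFAP-Cre samples (-0.57 ± 0.20, SE, adjusted p = 0.0406). Its call was lost without any 1 of the controls or without dcKO_hGFAP-Cre sample 1, 2 or 4 (adjusted p between 0.0534 and 0.102), and 16.8% of its exon bases are shared with Gm37587 on the opposite strand. Sox18 lay between 7.55 and 12.2 CPM in control and between 3.65 and 7.88 CPM in dcKO_hGFAP-Cre samples, which overlapped (-0.66 ± 0.22, SE, adjusted p = 0.0335). Its call was lost without control sample 2, 3 or 4 or dcKO_hGFAP-Cre sample 1 (adjusted p between 0.0544 and 0.107). With library totals the calls of Sox17 (adjusted p = 0.0997) and Sox18 (0.0712) were lost as well, and so they were without both dcKO_hGFAP-Cre samples 1 and 2 (0.153 and 0.0964). Of 10 endothelial genes 5 fell and 5 were not called (median -0.53), with sums of 230, 247, 298 and 259 CPM in control and 216, 193, 220 and 129 CPM in dcKO_hGFAP-Cre samples. Cldn5, a tight junction gene, was the most abundant (67.5 ± 12.2 and 60.7 ± 16.9 CPM), and Flt1, a VEGF receptor, had the largest fall (-0.88, adjusted p = 2.02e-04). The part of endothelial cell numbers in the SoxF levels was not tested. Of the Sox genes left out by the filter, Sox14 and Sox15 had 0 counts in all controls and 1 to 3 counts in each dcKO_hGFAP-Cre sample, at or under the floor, and Sox30 had 1 to 9 counts in every sample. Fitted without the filter, Sox15 passed as higher (adjusted p = 0.0344 in the quasi-likelihood test of edgeR), and Sox14 (0.15) and Sox30 (0.896) did not.

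Of 10 genes for factors that act with Sox proteins, 4 fell, 3 rose and 3 were not called (median log2 fold change -0.08). The POU factor Pou3f1 had the largest fall, from 111 ± 19.6 to 17.5 ± 4.78 CPM (-2.67, adjusted p = 7.18e-06 in the quasi-likelihood test of edgeR). Pax6, a partner of Sox2 in progenitors, had the largest rise, from 19.5 ± 4.54 to 47.4 ± 5.86 CPM (1.28, adjusted p = 6.35e-05), with all dcKO_hGFAP-Cre samples above all controls as in Sox2. Ctnnb1, which encodes beta-catenin, had the highest mean over all 8 samples, at 915 ± 5.37 and 911 ± 28.6 CPM, and was not called (adjusted p = 0.938). In control Nfix was higher, and it fell from 1170 ± 60.0 to 472 ± 29.6 CPM (-1.30, adjusted p = 4.10e-07). The summed level was 3018, 2999, 3131 and 3099 CPM in control and 2183, 2208, 2198 and 2209 CPM in dcKO_hGFAP-Cre samples.

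SoxB1 genes are also expressed in other regions of the brain, and part of the markers of such regions rose. Of 12 striatal neuron genes 7 rose and 5 were not called (median log2 fold change 2.11), and 3 rose without both samples numbered 3, with sums of 337, 435, 323 and 317 CPM in control and 988, 482, 1005 and 643 CPM in dcKO_hGFAP-Cre samples. Foxp1 had the highest mean over all 8 samples (200 ± 17.8 and 161 ± 63.3 CPM), and Isl1 had the largest rise (3.43, adjusted p = 0.00217 in the quasi-likelihood test of edgeR). In dcKO_hGFAP-Cre samples Ppp1r1b was above Foxp1, after a rise from 40.8 ± 6.17 to 308 ± 39.9 CPM (2.92, adjusted p = 4.54e-08). Of 10 thalamus and midbrain genes 9 were tested, 6 rose and 3 were not called (median 0.61; 3 rose with at least 10 counts required in every sample), with sums of 96.4, 82.8, 90.2 and 82.4 CPM in control and 117, 164, 105 and 141 CPM in dcKO_hGFAP-Cre samples. Slc17a6 was the most abundant (51.9 ± 3.66 and 61.1 ± 13.3 CPM). The sums of both lists were higher in all dcKO_hGFAP-Cre samples. Of 8 choroid plexus genes 7 were tested, 3 rose and 4 were not called (median 3.38), and without any 1 of the controls or dcKO_hGFAP-Cre sample 1 or 2 the number was 1, without sample 3 it was 5 and without sample 4 it was 7. Ttr, a carrier protein gene, had the highest mean of the list. The sums were 8.28, 14.0, 4.95 and 5.03 CPM in control and 627, 1194, 24.4 and 8.81 CPM in dcKO_hGFAP-Cre samples, with Ttr at 584, 1128, 15.8 and 1.72 CPM in the latter, and Otx2 had the largest rise, from 0.206 to 7.30 CPM (adjusted p = 3.17e-04). dcKO_hGFAP-Cre samples 1 and 2 had the highest choroid plexus sums and the highest Sox2, at 99.6 and 98.9 CPM against 84.3 and 86.4 CPM in samples 3 and 4. Without samples 1 and 2, the log2 fold change of Sox2 was 0.60 (adjusted p = 0.00431).

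Of 12 cycling cell genes 4 rose and 8 were not called (median 0.21), with overlapping sums of 282, 264, 271 and 240 CPM in control and 279, 282, 307 and 264 CPM in dcKO_hGFAP-Cre samples. Top2a was the most abundant (48.2 ± 4.49 and 47.3 ± 4.17 CPM) and Bub1 had the largest rise (0.58, adjusted p = 0.0128 in the quasi-likelihood test of edgeR). The number that rose was 2 without control sample 2 or 4 or without dcKO_hGFAP-Cre sample 1, 2 or 3. Of 10 microglia genes 7 rose and 3 were not called (median 0.57), with sums of 155, 152, 123 and 116 CPM in control and 222, 255, 230 and 210 CPM in dcKO_hGFAP-Cre samples. Csf1r was the most abundant (36.7 ± 7.36 and 57.6 ± 5.45 CPM) and Aif1 had the largest rise (1.40, adjusted p = 2.20e-04). In each of the lists given here every gene had at least 1 count in some sample. The part of these cells and regions in the levels of Sox1, Sox2 and Sox13 was not tested.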

How the data were processed

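RNA of P3 cortex was sequenced from TruSeq v2 libraries. The deposited values are raw counts, which the authors made with featureCounts from reads aligned to mm10. The aligner, annotation, strand setting and handling of multi-gene reads are not given in the sources used here. Of the 48709 identifiers, 48349 were matched to GENCODE M21 (mm10), the source of symbols, positions and exon lengths.

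Counts were fitted with edgeR 4.0.16 (R 4.3.3; robust glmQLFit, glmQLFTest, TMM, filterByExpr with a minimum count of 10, no block), and SE was derived from the fold change and F. Ratios used a prior of 0.5 counts and the exact two-sided permutation test over 70 arrangements. The members and lists were chosen with earlier results of these data known. Named are the members, other Sox genes, Smarcc1, Smarcc2, overlapping transcripts, and in each list the gene with the highest mean CPM over all samples (most abundant) and the called genes with the largest rise and fall, some of which are not reported here. Genes highest in 1 group only were chosen after their values were seen. The lists were other Sox genes, Sox partner factors, radial glia, astrocyte, oligodendrocyte lineage, newborn neuron, cortical neuron, MGE interneuron, striatal neuron, endothelial, choroid plexus, microglia, thalamus and midbrain, and cycling cell.

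Alternatives were DESeq2 1.42.0, limma-voom (limma 3.58.1), DESeq2 size factors, library totals, other low-count filters, a block for replicate number or for lane, each sample left out, a prior of 2 counts and the longest transcript. Leaving out dcKO_hGFAP-Cre samples 1 and 2, or both samples numbered 3, was chosen after the data were seen.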

Additional observations from a re-analysis of the deposited data

Results flagged for a closer look

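A sample far from the other 3 of its group was looked for in the levels of single genes given by sample, the ratios of counts, the summed levels of the lists, and the SoxB1 and SoxC sums and shares. Of these 116 sets of 4 values, many of which share genes, 7 held such a sample, where chance gives about 1 in 20, or 5.8.

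Of the 7, 4 were dcKO_hGFAP-Cre sample 3 as the highest of its group. It stood at 2401 CPM in the summed astrocyte genes (nearest 1008 CPM), at 273 CPM in Gfap (nearest 32.2 CPM), at 53.0 CPM in Aqp4 (nearest 9.92 CPM) and at 109 CPM in the summed other Sox genes (nearest 80.8 CPM). Gfap and Aqp4 are among the astrocyte genes and were chosen after their values were seen. The remaining 3 were control sample 2. Its log2 ratio of Sox4 to Sox11 was the lowest control value, at -1.715 (nearest -1.204), as was the share of Sox4 in the summed SoxC level, at 21.2% (nearest 25.8%), and its summed level of striatal neuron genes was the highest control value, at 435 CPM (nearest 337 CPM).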

How the results depend on the processing

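Over 18 alternatives, 22 single genes kept their call in 351 of 396 comparisons, with no called gene changing direction and sign changes of other genes, where there were any, smaller than 1 SE except in Sox21 with library totals. Counts of called genes in lists stayed within 1.5 times in 468 of 504 comparisons. Sox1 (log2 fold change 0.43 to 0.62) and Sox2 (0.60 to 0.83) were called in all 18, as were Sox5, Sox7, Sox10, Sox1ot, Sox2ot, Smarcc1 and Smarcc2. The number of members called lower was 1, and it was 2 in DESeq2 (Sox12 and Sox9) and in edgeR 0 with library totals, 0 without a low-count filter, 0 with at least 10 counts in every sample, 0 without dcKO_hGFAP-Cre samples 1 and 2, and 0 to 1 with each sample left out. Without both samples numbered 3 it was 1 (Sox9). The number called higher was 2 or 3. Over all genes, leaving out dcKO_hGFAP-Cre samples 1 and 2 gave 1581 lower and 1388 higher genes against 3128 and 3074, with fewer samples in the test. Apart from that, the cause was not tested. The lane as a block gave 3242 lower and 3208 higher genes, and the 1 member called lower was then Sox9 in place of Sox12. Called genes numbered 1 to 7 higher in the choroid plexus list, 0 to 6 in the cycling cell, 3 to 10 in the striatal neuron, 3 to 8 in the thalamus and midbrain, 4 to 7 in the microglia and 6 to 11 in the MGE interneuron list, and 1 to 10 lower in the astrocyte list and 3 to 6 lower among other Sox genes.

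With the replicate block, 2982 genes were lower and 2932 higher, and 1 member was lower, Sox9 (-0.48, edgeR's quasi-likelihood test, adjusted p = 0.0261) in place of Sox12 (-0.21, adjusted p = 0.0887). It also lowered the number of striatal neuron genes called higher from 7 to 3. Correlations of deviations between samples with the same number were 0.171, -0.068, 0.213 and -0.024, and not every sample correlated best with its own number.

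Depth limits Sox14, Sox15 and Sox30, which the low-count filter left out. Without it Sox15 was called higher on 0 counts in each control and 1 to 3 counts in each dcKO_hGFAP-Cre sample.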
